A study of Mus musculus with 143 samples.

Results

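Single-oocyte poly(A) RNA sequencing of Dis3 cKO and control mouse oocytes cultured for 3 h (the stage labelled GV3h) is described here. The members are the 24 libraries that carry this stage label, 16 labelled dis3cKO and 8 labelled control, of 143 samples in the series. Every library was made from 1 oocyte of Mus musculus. The oocytes were dissected from ovaries and kept in M2 medium, and the labels attribute the mutant animals to CRISPR/Cas9 construction. The labels name no Cre driver, no age, no strain and no number of animals for these groups, so the p-values measure only the spread between these libraries. Each lysate received a mix of ERCC spike-in RNAs, poly(A) RNA was pulled down on oligo-dT beads, and the cDNA was tagmented with a Nextera kit, which does not keep the strand. The comparison asks which transcripts differ when Dis3 is lost. Oocytes before culture (GV, 8 control and 15 Dis3 cKO), ovulated eggs (MII, 8 and 16) and adult GV oocytes sequenced as total RNA depleted of ribosomal RNA (RiboMinus, 8 and 8) are used only for comparison.

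DIS3 is a ribonuclease that joins the RNA exosome, a complex that degrades RNA from its 3′ end. In the nucleus the exosome removes promoter upstream transcripts, enhancer RNAs and other short-lived non-coding RNAs, and it trims precursors of stable small RNAs. A fully grown oocyte stops transcription and lives on stored mRNA, and release from the follicle lets it resume meiosis, when the germinal vesicle (its nucleus) breaks down.

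The control libraries held 8264869 to 10692553 gene counts and the Dis3 cKO libraries 6163212 to 15412200, beside 44577 to 75072 and 34158 to 123622 ERCC counts. Dis3 cKO libraries 15 and 16 were more alike (Pearson r = 0.995 across genes) than any other Dis3 cKO pair (0.944 to 0.982) or control pair (0.972 to 0.984). The chi-square per degree of freedom between the counts of libraries 15 and 16 was 2.67, against 8.22 to 58.8 for the other Dis3 cKO pairs. Between their ERCC counts it was 9.63, against 3.55 to 30.5. Reads carry no molecular identifiers, so these values do not show whether the 2 libraries differ beyond the sampling noise of molecules. Whether they come from 1 oocyte or 1 animal cannot be told from the labels. They were kept as 2 libraries, and with their counts summed into 1 the test described below called 6488 genes in place of 6718. Counts without both are given below for the calls and for the gene lists where either count moved by over 1.5 times or the balance changed. The control libraries fell into 2 sets by title number: pairs within 1 to 4 or within 5 to 8 had r of 0.980 to 0.984, and pairs across the sets 0.972 to 0.978. With the first set alone as controls 4307 genes were called, and with the second 4751, and what sets them apart was not tested. CPM are gene counts scaled to the same total in each library, and the sums given next are further scaled by TMM, a normalisation for library composition. The summed level of 16 oocyte markers was 22088 to 29207 CPM in controls and 21712 to 26997 in Dis3 cKO oocytes. Of 22 granulosa and cumulus cell markers, the 17 kept for the test summed to 92.6 to 129 CPM in controls and 70.7 to 133 CPM in Dis3 cKO libraries. In that list, by CPM without TMM scaling, Tnfaip6 was at 0 in all 24 libraries and Foxl2 never passed 0.253 CPM. Neither was kept for the test. Cyp19a1 stood at 25.7 to 56.2 CPM in controls and 4.61 to 21.2 CPM in Dis3 cKO libraries. Nr5a2 stood at 25.9 to 41.5 CPM and 26.0 to 61.9 CPM. Kitl, Col4a1, Col4a2, Cyp11a1 and Runx2 were also found in every library. Of 13 theca, stroma and blood cell markers, the 4 kept for the test summed to 60.3 to 85.3 CPM and 36.0 to 57.0 CPM, most of it Pecam1. Both haemoglobin genes (Hbb-bs, Hba-a1) were not kept for the test and were at 0 throughout.

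Dis3 itself stood at 7.28 CPM in the lowest, 13.3 CPM in the median and 18.0 CPM in the highest control library. In Dis3 cKO libraries the lowest, median and highest levels were 0.212, 2.13 and 5.25 CPM. The 2 groups did not overlap, and Dis3 fell by 2.57 on the log2 scale (SE 0.37, edgeR adjusted p 5.2e-08). The gene lies on the minus strand at chr14:99076634-99099780 (GRCm38) and overlaps Pibf1, whose log2 difference was -0.14. CPM values of single genes here and below are scaled by TMM as well.

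With all libraries more genes rose than fell after Dis3 loss, and the large increases outnumbered the large decreases. Of 17389 genes tested, 6718 (38.6%) passed an adjusted p of 0.05 in edgeR's quasi-likelihood test. In Dis3 cKO oocytes 3989 genes (22.9%) were higher and 2729 (15.7%) lower, with a median log2 difference of 0.07 over all genes. The excess of increases grew with size. By at least 1 on the log2 scale, 2719 genes (15.6%) rose and 791 (4.55%) fell, and past 3 on the log2 scale 805 rose and 59 fell. Genes that were called, had no overlap between the 16 Dis3 cKO and the 8 control libraries, and reached a mean of 10 CPM in the higher group numbered 1043 (6.0%), of which 522 rose and 521 fell. Of those 522 raised genes, 331 were protein coding and 87 were long non-coding RNAs (lncRNAs), and of the 521 lowered genes, 480 were coding and 15 were lncRNAs. Without libraries 15 and 16 the excess in number was lost: the test called 3261 genes higher and 3296 lower, and 5955 of the reported calls were shared, all with the same sign. The excess among large changes remained without them, with 2313 higher and 904 lower by at least 1, and 745 higher and 73 lower past 3 on the log2 scale. Scaled to ERCC RNAs, 3046 genes were higher and 1850 lower. With counts summed over 4 consecutive title numbers 2407 were higher and 2208 lower, with a median log2 difference of -0.03.

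**Figure D1:**
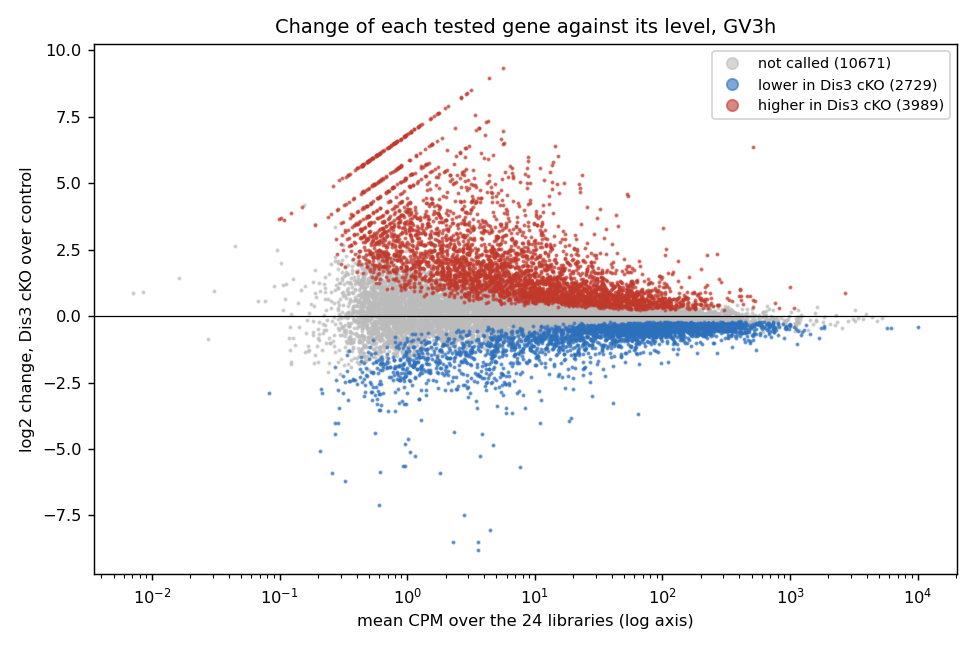
Each point is 1 of the 17389 genes tested, placed by its mean CPM over the 24 libraries (log axis) and by its log2 difference, Dis3 cKO over control. Of the 3989 raised genes 805 lie past 3 on the log2 scale, against 59 of the 2729 lowered genes.

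Several measures of the whole library moved with the genotype. The number of genes at 1 CPM or more was 13796 to 14242 in controls and 14591 to 15858 in Dis3 cKO oocytes. The groups did not overlap, with a mean difference of 1242 genes (exact permutation test, 2-sided, p 1.36e-06, the smallest that 735471 regroupings can give; 8.16e-06 adjusted over 6 library measures). With every library thinned to 6163212 counts the medians were 13942 and 15183 genes. Mitochondrially encoded genes took 0.313% ± 0.0580 of gene counts in controls (SD, n = 8) and 0.488% ± 0.0723 in Dis3 cKO oocytes (SD, n = 16). That was a mean log2 difference of 0.65, with 16 of 16 Dis3 cKO libraries above the control median although the ranges overlapped (exact permutation p 1.36e-05, adjusted 4.08e-05). The lncRNA share was 2.34% ± 0.0496 in controls and 2.54% ± 0.181 in Dis3 cKO oocytes, which is 0.11 higher on the log2 scale (p 0.00641 by exact permutation, 0.0128 adjusted). It was above the control median in 13 of 16 libraries. Gene counts per ERCC count differed by -0.18 (exact permutation p 0.155, adjusted 0.186), the pseudogene share by -0.04 (p 0.541) and the replication-dependent histone share by -0.23 (p 0.0686, adjusted 0.103) on the log2 scale, within the spread between libraries. The part that these library measures have in the results for single genes was not tested.

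The largest increases were in genes that were close to absent from control oocytes. The genes named here by the rule, which itself requires no overlap between the groups, each had a control median under 0.6 CPM. Their Dis3 cKO medians were 8.76 CPM or more. Fam83c and Mrm1 are protein coding, 7 are typed lncRNA in RefSeq, and Gm42668, AC108836.1, Gm38102 and Gm49767 have no RefSeq type. Because their control counts were near 0, the fitted fold changes depend on the prior count and are given for ranking.

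Fam83c, a member of a family that anchors casein kinase 1, went from 0, 0.322 and 0.720 CPM (lowest, median, highest) in controls to 7.78, 16.6 and 23.0 CPM in Dis3 cKO oocytes, far apart. Its log2 difference was 5.57 (SE 0.58, edgeR adjusted p 8.2e-12), while its neighbour Eif6, 2258 bp away, differed by -0.30. Mrm1, which encodes a methyltransferase of mitochondrial ribosomal RNA, rose from 0, 0.104 and 1.11 CPM to 5.47, 11 and 24.9 CPM. The log2 difference was 5.35 (SE 0.78, edgeR adjusted p 6.0e-08), without overlap, and the neighbouring gene Dhrs11 differed by 0.17.

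Among the non-coding genes, Rncr4, an lncRNA first described in retina, was at 0, 0.104 and 0.480 CPM in controls and at 9.80, 13.1 and 16.2 CPM in Dis3 cKO oocytes. Its log2 difference was 5.99 (SE 0.57, edgeR adjusted p 1.1e-13), and all 16 Dis3 cKO libraries lay within a narrow band well above every control. 1700001G17Rik, which lies 16 bp from Prim2, went from 0.104, 0.379 and 1.05 CPM to 9.01, 20.2 and 25.4 CPM. This was a log2 difference of 5.41 (SE 0.42, edgeR adjusted p 4.9e-17), whereas Prim2, the large subunit of DNA primase, differed by -0.09. 2810032G03Rik, 38 bp from Klhl29, went from 0, 0.380 and 3.77 CPM to 5.55, 31.8 and 66.8 CPM, while Klhl29 differed by 0.15. 1700055D18Rik is 398 bp from Zbtb5, a zinc finger gene, and here both rose, by 5.84 and 2.49 on the log2 scale. Gm32051 rose by 5.27 on the log2 scale, and Lrrc8b, a volume-regulated channel subunit gene 1284 bp away, fell by 0.45. The lncRNA gene 4930542N06Rik overlaps Gm32051, so part of the Gm32051 reads may belong to it. The other 6 named genes, Gm42668, AC108836.1, Gm38102, Gm49767, Gm26698 and Gm12678, rose by 5.10 to 6.39 on the log2 scale with no overlap between groups.

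**Figure D2:**
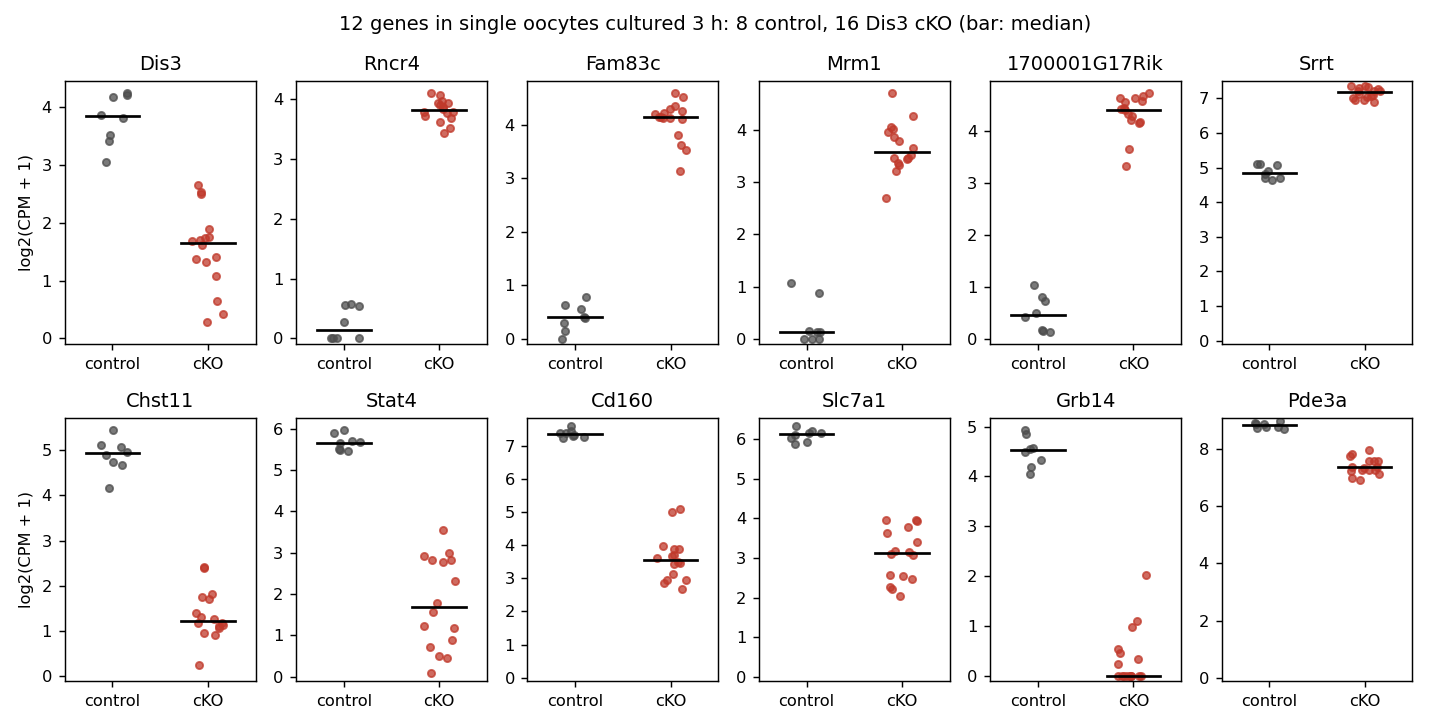
Each panel shows 1 gene in the 8 control and 16 Dis3 cKO libraries as log2(CPM + 1), with a bar at the median of each group. Dis3, Chst11, Stat4, Cd160, Slc7a1, Grb14 and Pde3a lie lower and Rncr4, Fam83c, Mrm1, 1700001G17Rik and Srrt higher in Dis3 cKO libraries, with no overlap in any of the 12 panels.

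By gene class, 38.5% of 1394 tested lncRNAs rose and 9.3% fell, with a median log2 difference of 0.56. Of 13377 coding genes, 18.9% rose and 17.6% fell, with a median of 0.01. Pseudogenes (608 tested) had 32.7% higher and 10.9% lower, and the 1951 genes without a RefSeq type had 36.3% higher and 8.6% lower. The classes differ in level, so they were also compared at like levels. Between 10 and 30 CPM, 41.0% of 144 lncRNAs and 24.5% of 2746 coding genes rose. Between 3 and 10 CPM the shares were 47.2% of 362 lncRNAs and 26.6% of 2239 coding genes.

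The lncRNAs were then split by whether a coding gene starts nearby on the other strand. Many mammalian promoters fire in both directions, and the upstream transcript is a known exosome substrate. Of 337 tested lncRNAs with an opposite-strand coding start within 2 kb, 178 (52.8%) rose and 22 fell, with a median log2 difference of 1.02. The 226 that run head to head with the coding gene, away from it, had 136 raised, 13 lowered and a median of 1.31. The 111 whose starts lie past each other, so that the transcripts overlap, had 42 raised, 9 lowered and a median of 0.42. Without strand the reads of such overlaps cannot be told apart, and their part in this median was not tested. The other 791 lncRNAs with a known start had 267 raised, 73 lowered and a median of 0.45. Without libraries 15 and 16, 164 of the 337 rose and 27 fell, and of all 1394 lncRNAs 35.4% rose and 10.2% fell. The 335 coding partners had 73 raised and 66 lowered with a median of 0.03, and all 10789 coding genes with a known start had 2019 raised, 1911 lowered and a median of 0.01. Among the 178 coding partners of raised lncRNAs, 50 rose, 36 fell and the median was 0.11.

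**Figure D3:**
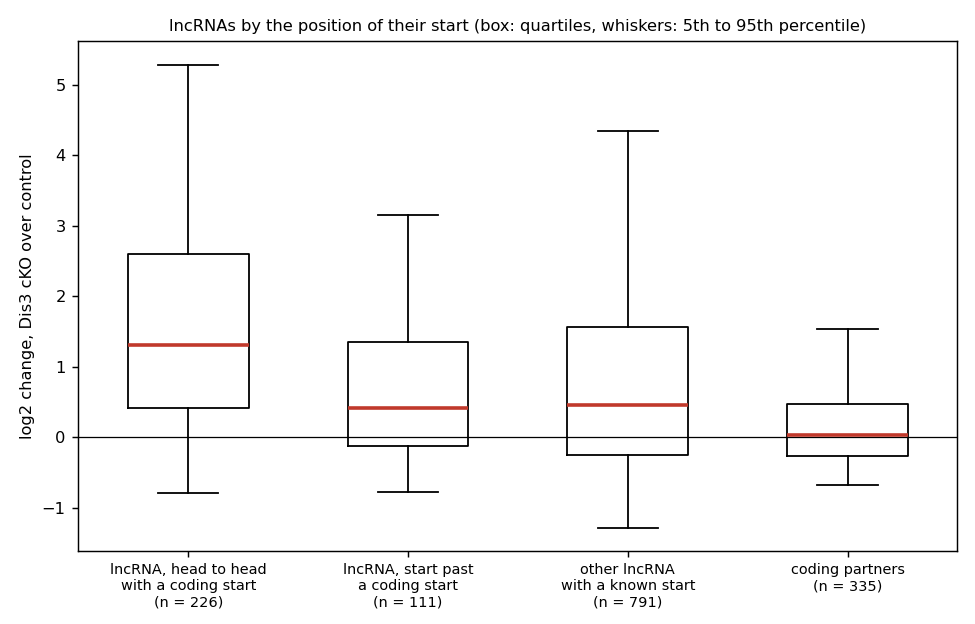
Boxes give the quartiles and whiskers the 5th to 95th percentile of the log2 difference, Dis3 cKO over control, for 4 classes of gene. The 226 head-to-head lncRNAs have a median of 1.31, against 0.42 for the 111 starting past a coding start, 0.45 for the 791 other lncRNAs and 0.03 for the 335 coding partners.

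Among pairs with a raised lncRNA, and with 1 chromosome left out of the choice, the 4 with the smallest p of the lncRNA were taken. They are shown with the sequence at the lncRNA's start, because the partner's start lies within 2 kb. The start of Ipo8 lies inside the window and those of Ergic2, Ankrd11 and Hps1 outside it, and whether a promoter is shared was not tested. The windows are the RefSeq sequences of GRCm38.p6, 250 bases before to 50 bases after the lncRNA's start, read on the plus strand, 5′ to 3′, with CG dinucleotides in capitals. They lie at chr6:148212038-148212337 for 4732416N19Rik (partner Ergic2), chr6:148831370-148831669 for 2610017A05Rik (Ipo8), chr8:123042325-123042624 for 2810013P06Rik (Ankrd11) and chr19:42778782-42779081 for Gm16244 (Hps1).
4732416N19Rik: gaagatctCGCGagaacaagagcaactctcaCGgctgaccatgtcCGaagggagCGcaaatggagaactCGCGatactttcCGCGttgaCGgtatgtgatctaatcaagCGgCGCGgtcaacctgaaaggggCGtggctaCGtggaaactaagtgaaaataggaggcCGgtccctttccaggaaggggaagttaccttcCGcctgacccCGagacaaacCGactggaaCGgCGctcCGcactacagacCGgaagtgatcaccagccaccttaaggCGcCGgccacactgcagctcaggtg
2610017A05Rik: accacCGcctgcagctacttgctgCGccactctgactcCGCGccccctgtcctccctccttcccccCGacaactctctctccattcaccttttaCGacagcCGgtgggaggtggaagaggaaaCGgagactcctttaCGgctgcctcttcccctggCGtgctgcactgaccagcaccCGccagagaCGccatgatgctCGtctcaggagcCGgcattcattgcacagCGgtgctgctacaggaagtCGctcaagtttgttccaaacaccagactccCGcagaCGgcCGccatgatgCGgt
2810013P06Rik: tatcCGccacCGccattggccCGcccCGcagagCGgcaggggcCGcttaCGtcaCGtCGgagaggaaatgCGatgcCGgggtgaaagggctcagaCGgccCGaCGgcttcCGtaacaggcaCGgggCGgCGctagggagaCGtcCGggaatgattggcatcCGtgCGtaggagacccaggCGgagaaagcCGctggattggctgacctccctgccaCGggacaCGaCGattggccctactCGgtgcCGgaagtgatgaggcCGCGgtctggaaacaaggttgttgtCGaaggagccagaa
Gm16244: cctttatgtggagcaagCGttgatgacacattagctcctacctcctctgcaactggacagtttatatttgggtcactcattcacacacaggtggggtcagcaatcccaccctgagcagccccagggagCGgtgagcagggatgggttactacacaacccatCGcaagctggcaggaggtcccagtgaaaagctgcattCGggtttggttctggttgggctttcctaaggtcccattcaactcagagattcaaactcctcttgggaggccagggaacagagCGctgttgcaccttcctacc
The windows hold 25, 20, 32 and 5 CG dinucleotides in that order, at a GC content of 57.3%, 61.3%, 65.0% and 53.7%. The motif GGGCGG, searched on both strands and itself holding a CG, occurs 2 times in the 2810013P06Rik window and not in the other three, and TATAAA, on both strands, occurs 1 time, in the Gm16244 window.

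4732416N19Rik stood at 11, 14.4 and 19.4 CPM in controls (lowest, median, highest) and at 102, 134 and 246 CPM in Dis3 cKO oocytes. Its log2 difference was 3.32 (SE 0.26, edgeR adjusted p 5.5e-17), while Ergic2, a protein of traffic between the endoplasmic reticulum and the Golgi, differed by 0.09 (SE 0.10, edgeR adjusted p 0.487). The starts of this pair lie past each other by 86 bp, and without strand the reads of the overlap cannot be told apart. 2610017A05Rik went from 1.97, 3.14 and 4.87 CPM to 39.4, 72.9 and 140.0 CPM, a log2 difference of 4.58 (SE 0.36, edgeR adjusted p 9.5e-17). Its partner Ipo8, a nuclear import receptor whose start is 153 bp away, fell by 0.41 (edgeR adjusted p 1.9e-04). The coding partner did not move the same way in each pair. 2810013P06Rik went from 1.48, 2.96 and 4.2 CPM to 18.3, 32.2 and 50.6 CPM, a log2 difference of 3.47 (SE 0.31, edgeR adjusted p 1.9e-14). The partner Ankrd11, a chromatin regulator 291 bp away, rose by 0.98 (edgeR adjusted p 6.7e-08). Gm16244 went from 0.416, 0.807 and 1.99 CPM to 6.89, 11.9 and 17.4 CPM, a log2 difference of 3.82 (SE 0.38, edgeR adjusted p 1.1e-12). Hps1, a subunit of a complex for lysosome-related organelles 386 bp away, rose by 1.11 (edgeR adjusted p 0.0185). None of these 4 lncRNAs overlapped between the groups.

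The windows of the 178 raised lncRNAs with an opposite coding start had a median of 28 CG dinucleotides and 66.7% GC, and 66.9% of them held GGGCGG and 4.5% TATAAA. The 159 lncRNAs of the same arrangement that did not rise had a median of 21 CG dinucleotides, and 56.6% held GGGCGG and 4.4% TATAAA. The 267 raised lncRNAs without such a start had a median of 5 CG dinucleotides. All 27025 RefSeq windows of this length had a median of 7, with GGGCGG in 35.9% and TATAAA in 14.2%. The 11918 windows of tested genes had a median of 19, with GGGCGG in 58.7% and TATAAA in 7.8%. A match to these letters is a description of the window only.

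Small non-coding RNAs were named after their values were seen, because the exosome processes several of them. They are examples that rose, and no count over all small RNAs is given. The libraries hold RNA pulled down on oligo-dT beads, so the values are of captured RNA. Whether the total amount of each RNA changed was not tested. Terc, the RNA template of telomerase, had 0 counts in all 8 controls and 215 counts over the 16 Dis3 cKO libraries, which made it at least 31.8-fold higher (floor of 3 counts over the control group). Rny1, a Y RNA bound by the Ro60 protein, had 1 count in controls and 500 in Dis3 cKO oocytes, a ratio of 222 (exact 95% interval for counting error 39.6 to 8777). Gm22973 had 0 and 155 counts, at least 22.9-fold higher. Rn7sk, the 7SK RNA that holds P-TEFb inactive, rose from 1.35, 2.96 and 3.99 CPM to 3.00, 5.89 and 7.77 CPM with overlapping groups (log2 difference 1.03, edgeR adjusted p 0.011). Rnu7, the U7 RNA of histone mRNA processing, rose by 1.58 (edgeR adjusted p 0.019) at levels under 1.4 CPM in every library.

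Of the snoRNA host genes, whose introns carry small nucleolar RNAs, 7 of 16 tested rose (43.8%, beside 22.9% of all genes and 38.5% of lncRNAs, the class of 15 of the 16) and none fell, with a median log2 difference of 0.36. Snhg18 went from 15.1, 19.9 and 26.1 CPM to 29.8, 45.1 and 74.0 CPM, a difference of 1.25 (SE 0.19, edgeR adjusted p 1.3e-07). Snhg10, Snhg14 and Snhg3 rose by 1.89, 1.84 and 1.97 on the log2 scale, each without overlap between the groups.

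The lowered genes named by the rule stood at 7.94 CPM or more in every control oocyte. The rule itself requires every control to lie above every Dis3 cKO library. Grb14, an adaptor that binds the insulin receptor, stood at 15.6, 22.0 and 29.5 CPM in controls and at 0, 0 and 3.09 CPM in Dis3 cKO oocytes, 14 of 16 of which were under 1 CPM. The log2 difference was -5.69 (SE 0.75, edgeR adjusted p 6.1e-09). The difference was not negative at the other stages: it was 0.60 before culture (edgeR adjusted p 0.613), 4.18 in MII eggs and 3.39 in adult RiboMinus libraries. Among GV controls it spanned 0 to 29.3 CPM, in MII controls 0 to 1.29 CPM and in RiboMinus controls 0.0981 to 1.53 CPM.

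Cd160, a receptor of natural killer and T cells, had the smallest adjusted p of the named decreases. It stood at 149, 164 and 194 CPM in controls and 5.40, 10.8 and 33.4 CPM in Dis3 cKO oocytes (log2 difference -3.69, SE 0.27, edgeR adjusted p 7.4e-18). Its neighbour Pdzk1, 105 bp away, fell by only 0.37. Stat4, a transcription factor of interleukin-12 signalling, went from 42.7, 49.5 and 61.6 CPM to 0.0732, 2.20 and 10.7 CPM (log2 difference -3.83, SE 0.44, edgeR adjusted p 6.8e-11). Chst11, a chondroitin sulfotransferase of the Golgi, went from 16.8, 29.5 and 42.8 CPM to 0.183, 1.33 and 4.34 CPM (log2 difference -4.04, SE 0.44, edgeR adjusted p 1.5e-11). Slc7a1, a transporter of arginine and lysine, went from 57.7, 68.8 and 78.9 CPM to 3.09, 7.75 and 14.6 CPM (log2 difference -3.02, SE 0.31, edgeR adjusted p 3.0e-12). None of these 4 overlapped between groups, and each also fell before culture and in adult RiboMinus libraries.

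Of the other named decreases, Serpinb1c, a serine protease inhibitor gene, fell by 3.47 on the log2 scale. Arhgef10l, a guanine nucleotide exchange factor gene, fell by 3.65. The log2 difference was -3.64 for Foxp2, a forkhead transcription factor, and -3.38 for Lrp2, the endocytic receptor megalin. It was -2.89 for Coro2a, an actin-binding coronin, -2.83 for Cmklr1, the chemerin receptor, -2.83 for Adtrp, a membrane hydrolase, and -2.96 for Gm28177. Gm48050, which has no RefSeq type, was at -2.75. The lncRNAs with the largest decreases by the same rule were Gm35167 (-2.25), Gm15496 (-1.89), D6Ertd474e (-1.43) and Gm26608 (-1.30), and all were without overlap. Other annotated genes overlap Coro2a, Gm15496, Stat4, Chst11, Arhgef10l, Foxp2, Serpinb1c, Cmklr1, D6Ertd474e and Gm26608, so part of their reads may belong to these. Of the overlapping genes Gm16731 (in Coro2a), Slc7a14 (in Gm15496) and Gm31812 (in Stat4) were tested, and differed by -2.86, 1.72 and 1.15 on the log2 scale at under 2 CPM on average in each group.

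Of 15 genes of the exosome and its ribonucleases, 3 rose (20%, against 22.9% of all genes) and 4 fell, the targeted Dis3 among them (26.7% against 15.7%). C1d, a nuclear cofactor, rose from 1.09, 2.78 and 3.16 CPM to 3.53, 9.75 and 23.7 CPM (log2 difference 2.20, SE 0.43, edgeR adjusted p 3.3e-05). The core subunit gene Exosc9 fell by 0.75 (edgeR adjusted p 2.1e-04) and Exosc2, a cap subunit, rose by 0.83 (edgeR adjusted p 2.4e-04), both with overlapping groups. Of 14 adaptors and cap-binding partners, 4 rose and 3 fell (3 and 5 without libraries 15 and 16). Scaled to ERCC RNAs, and likewise with counts summed over 4 consecutive title numbers, 3 rose and 1 fell. Srrt, the ARS2 protein that links the cap-binding complex to RNA decay, stood at 24.1, 28 and 33.4 CPM in controls and 118, 144 and 164 CPM in Dis3 cKO oocytes. Its log2 difference was 2.31 (SE 0.21, edgeR adjusted p 2.4e-14). Nrde2, a partner of the helicase MTR4, rose by 1.76 and Zfc3h1, of the poly(A) tail exosome targeting complex, by 0.42, while Zcchc7, of the TRAMP complex, fell by 0.56.

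Among other RNA decay lists, deadenylation and nonsense-mediated decay held more decreases than increases, where 22.9% of all genes rose and 15.7% fell. Of genes above a mean of 100 CPM 7.6% rose and 37.4% fell. Of 18 CCR4-NOT and related deadenylation genes, 8 fell (44.4%, against 15.7% of all genes) and 2 rose, with a median log2 difference of -0.21. The counts were 9 and 1 without libraries 15 and 16. Cnot7, a catalytic deadenylase, went from 428, 521 and 596 CPM to 197, 300.4 and 453 CPM (log2 difference -0.81, SE 0.11, edgeR adjusted p 1.0e-08), with overlap. Cnot2, Cnot3 and Pan2 fell by 0.47, 0.53 and 0.52. Of 18 decapping and 5′ decay genes, 3 rose and 4 fell. Among them the 5′ exonuclease gene Xrn1 fell by 1.07 (edgeR adjusted p 2.9e-07), and Patl2, an oocyte translation repressor, rose by 1.09 (edgeR adjusted p 7.3e-06). Nonsense-mediated decay had 5 of 15 lower and 1 higher, with falls of 0.55 for Smg1 and 0.69 for Smg6. Cleavage and polyadenylation had 5 of 21 higher and 5 lower, 4 and 8 without libraries 15 and 16, and 4 and 1 scaled to ERCC RNAs. Rbbp6, a 3′ processing factor, rose by 1.63 and the poly(A) polymerase gene Papolg fell by 0.51. Of 19 m6A genes 8 rose (42.1%, against 22.9% of all genes) and 5 fell (26.3%, against 15.7%). The counts were 7 and 7 without libraries 15 and 16, and 7 and 3 scaled to ERCC RNAs. The writer components Rbm15b and Zc3h13 moved in opposite directions, by 0.89 and -0.59.

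Among the genes that make RNA, 11 of 28 elongation and pausing genes fell and 6 rose. The share that fell was 39.3%, beside 15.7% of all genes and 37.4% of genes above a mean of 100 CPM. The median log2 difference was -0.28, and 15 fell and 4 rose without libraries 15 and 16. Supt5, a subunit of the elongation factor DSIF, went from 73.2, 82.3 and 97.8 CPM to 36.9, 51.2 and 64.5 CPM (log2 difference -0.69, SE 0.12, edgeR adjusted p 4.0e-06). Ccnk, the cyclin of CDK12 and CDK13, fell by 0.84, and Nelfa and Ccnt2 by 0.54 and 0.42. Of 13 polymerase II subunit genes 3 rose (23.1%, near the 22.9% of all genes) and 1 fell. Without libraries 15 and 16, and likewise when scaled to ERCC RNAs, 1 rose and 1 fell, and none rose with counts summed over 4 consecutive title numbers. Polr2a, the largest subunit, differed by 0.47 (edgeR adjusted p 0.033) with overlapping groups, and by 0.24 without libraries 15 and 16 (edgeR adjusted p 0.283), and Polr2g fell by 0.42. Mediator had 6 of 30 lower (20%) and none higher, and Integrator 3 of 14 lower (21.4%) and none higher, with median log2 differences of -0.06 and -0.13. Scaled to ERCC RNAs, 3 Mediator and 2 Integrator genes were lower and none higher. Of 57 genes of ribosome biogenesis, Pol I and Pol III, 17 fell and 10 rose (21 and 6 without libraries 15 and 16). Scaled to ERCC RNAs, 11 fell and 5 rose. In this list Polr3f, a polymerase III subunit gene, fell by 1.45 (edgeR adjusted p 1.8e-12) and Ubtf, the polymerase I factor UBF, rose by 1.89 (edgeR adjusted p 8.2e-09). Splicing factors had 7 of 46 higher and 8 lower, and 5 and 2 when scaled to ERCC RNAs.

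Genes of meiotic resumption changed in both directions. Pde3a, the phosphodiesterase that lowers cAMP in the oocyte, stood at 413, 451 and 506 CPM in controls and at 119, 163 and 250 CPM in Dis3 cKO oocytes. The groups did not overlap (log2 difference -1.40, SE 0.12, edgeR adjusted p 1.1e-15), and the gene also fell before culture, by 1.45, and in MII eggs, by 1.9. Of 15 genes of cAMP control, 4 rose and 4 fell (2 and 5 without libraries 15 and 16), 26.7% each way where 22.9% of all genes rose and 15.7% fell. In the CDK1 and cyclin B list 7 of 22 fell (31.8%) and 4 rose (18.2%), and 4 and 2 scaled to ERCC RNAs. Wee1, a kinase that inhibits CDK1, went from 10.5, 15.1 and 21.0 CPM to 30.9, 45.3 and 95.7 CPM (log2 difference 1.83, SE 0.23, edgeR adjusted p 1.4e-09). The oocyte kinase gene Wee2, of the same family, fell by 0.46 with overlap, Ccnb3, an M-phase cyclin, fell by 1.56, and Ensa, a PP2A inhibitor, rose by 0.89.

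Among spindle and anaphase genes decreases outnumbered increases, where 22.9% of all genes rose and 15.7% fell. Above a mean of 100 CPM 7.6% of genes rose and 37.4% fell, and 5.6% and 45.5% without libraries 15 and 16. The part of level in these lists was not tested. Of 29 spindle assembly genes 13 fell (44.8%) and 2 rose, and the 2 increases were lost without libraries 15 and 16, when 14 fell. Cenpe, a kinetochore motor, went from 403, 496 and 619 CPM to 230.5, 307 and 394 CPM (log2 difference -0.76, SE 0.11, edgeR adjusted p 2.7e-08). The kinase gene Aurka, the centralspindlin gene Racgap1 and the microtubule polymerase gene Ckap5 fell by 0.62, 0.84 and 0.52, each without overlap. Of 24 genes of anaphase control and MII arrest, 9 fell and 2 rose (12 and 1 without libraries 15 and 16). Fbxo43, the EMI2 protein that holds eggs in metaphase, went from 197, 214 and 224 CPM to 109.9, 128 and 164 CPM (log2 difference -0.65, SE 0.08, edgeR adjusted p 7.6e-10). The checkpoint genes Ttk and Mad1l1 fell by 0.52 and 0.71. Cohesin and its protection had 4 of 17 higher and 4 lower (3 and 5 without libraries 15 and 16). Stag1 and Pds5b rose by 0.80 and 0.75 and the loader gene Nipbl fell by 0.54.

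Decreases also outnumbered increases among genes of protein turnover and folding. Of 37 proteasome genes 14 fell (37.8%, beside 15.7% of all genes and 37.4% of genes above a mean of 100 CPM) and 2 rose, with a median log2 difference of -0.27. Psmd2 and Psmc2, of the regulatory particle, fell by 0.61 and 0.56, whereas Psmd7, of the same particle, rose by 0.65. Of 30 heat shock and chaperone genes 12 fell and 5 rose. Dnajb1, a co-chaperone of HSP70, went from 168, 181 and 211 CPM to 63.3, 84.7 and 124 CPM (log2 difference -1.06, SE 0.13, edgeR adjusted p 1.5e-09), and Hsp90aa1 fell by 0.44. The stress response of the endoplasmic reticulum had 9 of 27 lower and 4 higher, and 5 and 3 scaled to ERCC RNAs. Its chaperone genes Pdia4 and Canx fell by 0.73 and 0.46, and Eif2ak3, the kinase PERK, rose by 1.23. Scaled to ERCC RNAs, the genes that fell numbered 5 of the deadenylation list, 8 of elongation, 8 of spindle, 4 of anaphase control, 8 of the proteasome and 8 of the chaperones.

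Genes by which the oocyte stores mRNA and sets its identity were mixed. Of 21 genes of mRNA storage and translation control, 8 fell and 5 rose. The counts were 12 and 3 without libraries 15 and 16, and scaled to ERCC RNAs 3 and 3. Dazl, a germ cell activator of translation, went from 495, 580.1 and 618 CPM to 728, 1212 and 1549 CPM (log2 difference 1.08, SE 0.13, edgeR adjusted p 6.9e-10). Cpeb1, the regulator of cytoplasmic polyadenylation, went from 1037, 1077 and 1196 CPM to 496, 668 and 745 CPM (log2 difference -0.72, SE 0.12, edgeR adjusted p 2.7e-06). The groups did not overlap in either gene. Of 10 oocyte transcription factors 4 fell and 3 rose (2 rose without libraries 15 and 16), with falls of 0.73 for Lhx8 and 0.92 for Obox2 and increases of 0.61 for Nobox and 0.72 for Taf4b. Of the secreted factors and gap junction genes 2 of 9 fell, Bmp6 by 0.45. Of 17 genes of the subcortical maternal complex and Nlrp family 4 fell (23.5% against 15.7% of all genes) and none rose, with 1 lower when scaled to ERCC RNAs, and Nlrp9c fell by 0.85 without overlap. Zona pellucida and fertilisation genes had 4 of 9 lower and none higher, including Zp1 (-0.57) and Izumo1r, the egg receptor for sperm (-0.61), and 1 of 9 was lower when scaled to ERCC RNAs.

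The chromatin and germline lists are given beside the 22.9% of all genes that rose and the 15.7% that fell. Of 18 genes of DNA methylation and imprint protection, 6 fell and 3 rose (7 and 1 without libraries 15 and 16). Scaled to ERCC RNAs, 3 fell and 1 rose. The maintenance methyltransferase gene Dnmt1 went from 2009, 2322 and 2803 CPM to 691, 1332 and 1972 CPM (log2 difference -0.84, SE 0.17, edgeR adjusted p 4.7e-05), and Dnmt3l and Dnmt3a fell by 0.67 and 0.38. Polycomb and H3K27 demethylation had 4 of 27 higher and 4 lower, with Ezh2 at -0.57 and Ezh1 at 0.39. The counts were 2 and 5 without libraries 15 and 16, and 2 and 2 scaled to ERCC RNAs. Replication-dependent histone genes had 5 of 26 higher (19.2%) and 2 lower, while their summed level had a median of 178 CPM in controls and 134 CPM in Dis3 cKO oocytes, and with counts summed over 4 consecutive title numbers 1 gene rose and 2 fell. Of 11 variant histone genes 5 were higher (45.5%) and 2 lower, H2afj by 1.81 without overlap. Among 24 small RNA and germ granule genes 6 fell (25.0%) and 3 rose (12.5%), or 8 and 2 without libraries 15 and 16. Tdrd1, a scaffold of germ granules, went from 346, 378 and 426 CPM to 135, 173 and 234 CPM (log2 difference -1.03, SE 0.10, edgeR adjusted p 1.0e-13). Piwil1 fell by 1.43, and Pld6, a piRNA factor on mitochondria, rose by 1.23.

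Signalling and survival genes included Kit, the receptor for the growth signal from granulosa cells, which fell by 0.76 (edgeR adjusted p 1.6e-05) with overlap. In its list of KIT, PI3K, FOXO3 and mTOR genes 9 of 24 fell and 3 rose (12 and 3 without libraries 15 and 16, and 4 and 3 scaled to ERCC RNAs). Rictor, of mTORC2, fell by 0.86 without overlap and Tsc1, an mTORC1 inhibitor, rose by 0.68. Of 32 genes of the DNA damage checkpoint and p53 family 10 fell (31.2%) and 6 rose (3 rose without libraries 15 and 16, and 4 fell and 3 rose scaled to ERCC RNAs). Chek2, the checkpoint kinase of oocyte quality control, rose by 1.53 and Rad51c, a recombination gene, fell by 0.96, both without overlap. Of 24 apoptosis regulators 6 rose and 5 fell, 25.0% and 20.8% beside 22.9% and 15.7% of all genes, and 5 and 5 without libraries 15 and 16. Diablo, which releases caspases from inhibition, rose from 51.0, 55 and 67.2 CPM to 92.5, 120.3 and 155 CPM (log2 difference 1.10, SE 0.13, edgeR adjusted p 7.0e-10), while Bcl2l11 (BIM) fell by 1.08.

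The transport, membrane and metabolic lists are set beside all genes, of which 22.9% rose and 15.7% fell. Of 24 amino acid transporter genes 8 fell and 5 rose. Slc43a2, a transporter of neutral amino acids, rose from 0.278, 0.865 and 1.56 CPM to 7.61, 14.1 and 32.0 CPM (log2 difference 4.19, SE 0.54, edgeR adjusted p 3.0e-09). Of 51 glycosylation and sialylation genes 13 rose and 9 fell (9 and 9 without libraries 15 and 16, and 7 and 7 scaled to ERCC RNAs). Slc35a1, the CMP-sialic acid transporter of the Golgi, went from 27.4, 32.1 and 37.0 CPM to 3.65, 6.91 and 10.4 CPM (log2 difference -2.25, SE 0.28, edgeR adjusted p 6.4e-10), and Fut10 rose by 2.15. Of 45 Rab GTPase genes 11 rose and 7 fell, near the shares of all genes (24.4% and 15.6%), and 8 and 7 without libraries 15 and 16. The log2 differences included Rab1a at 0.87 and Rab8b at -1.42, neither with overlap. Gimap genes, GTPases known from lymphocytes, had 4 of 6 raised (66.7%) and none lowered. Gimap5 went from 6.98, 8.53 and 9.95 CPM to 28.2, 55.4 and 82.3 CPM (log2 difference 2.69, SE 0.21, edgeR adjusted p 4.4e-17) and Gimap1 rose by 3.71. Cholesterol biosynthesis had 4 of 23 higher and 4 lower (4 and 5 without libraries 15 and 16), and glycolysis 1 of 25 higher and 2 lower (0 and 2 without libraries 15 and 16). Scaled to ERCC RNAs, cholesterol biosynthesis had 3 higher and 1 lower, and no glycolysis gene was called.

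Few genes were called in the lists for oxidative phosphorylation and ribosomal proteins, where 22.9% of all genes rose and 15.7% fell. Nuclear-encoded oxidative phosphorylation had 2 of 79 genes higher and 4 lower (1 and 7 without libraries 15 and 16), and Ndufb5, a complex I subunit gene, fell by 0.99. Mitochondrial ribosomal proteins had 8 of 77 higher and 5 lower (5 and 7 without libraries 15 and 16), and 2 and 3 scaled to ERCC RNAs. Cytosolic ribosomal proteins had 4 of 78 higher and 9 lower, but 5 and 4 with Dis3 cKO libraries 1 to 8 alone and 1 and 14 with libraries 9 to 16 alone. Of the mitochondrially encoded mRNAs 4 of 7 tested rose and none fell, with a median log2 difference of 0.58. mt-Nd1 went from 199.5, 273 and 359 CPM to 265, 490.2 and 680.2 CPM (log2 difference 0.74, SE 0.28, edgeR adjusted p 0.031), and mt-Nd2 rose by 0.85, both with overlap. Without libraries 15 and 16, 3 of the 7 rose and mt-Nd1 stood at 0.64 (edgeR adjusted p 0.069), and with counts summed over 4 consecutive title numbers none passed.

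Markers of somatic cells moved individually. Cyp19a1, the aromatase of granulosa cells, went from 25.3, 40.8 and 54.7 CPM to 3.92, 10.7 and 20.1 CPM (log2 difference -1.95, SE 0.20, edgeR adjusted p 1.7e-12). Star, a steroidogenic carrier, rose by 2.41 (edgeR adjusted p 8.3e-04) at levels under 9.9 CPM, and the endothelial adhesion gene Pecam1 fell by 0.92. The part of somatic RNA in these results was not tested, and of the granulosa list 2 of 17 tested genes rose and 1 fell, with a median log2 difference of 0.57. The 2 were the activin subunit genes Inhba and Inhbb, each under 0.6 CPM on average in Dis3 cKO oocytes, and 1 of them was called without libraries 15 and 16. Inha and Ptgs2 stood at 1.35 and 1.28 on the log2 scale without passing the test (edgeR adjusted p 0.261 and 0.143).

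**Figure D4:**
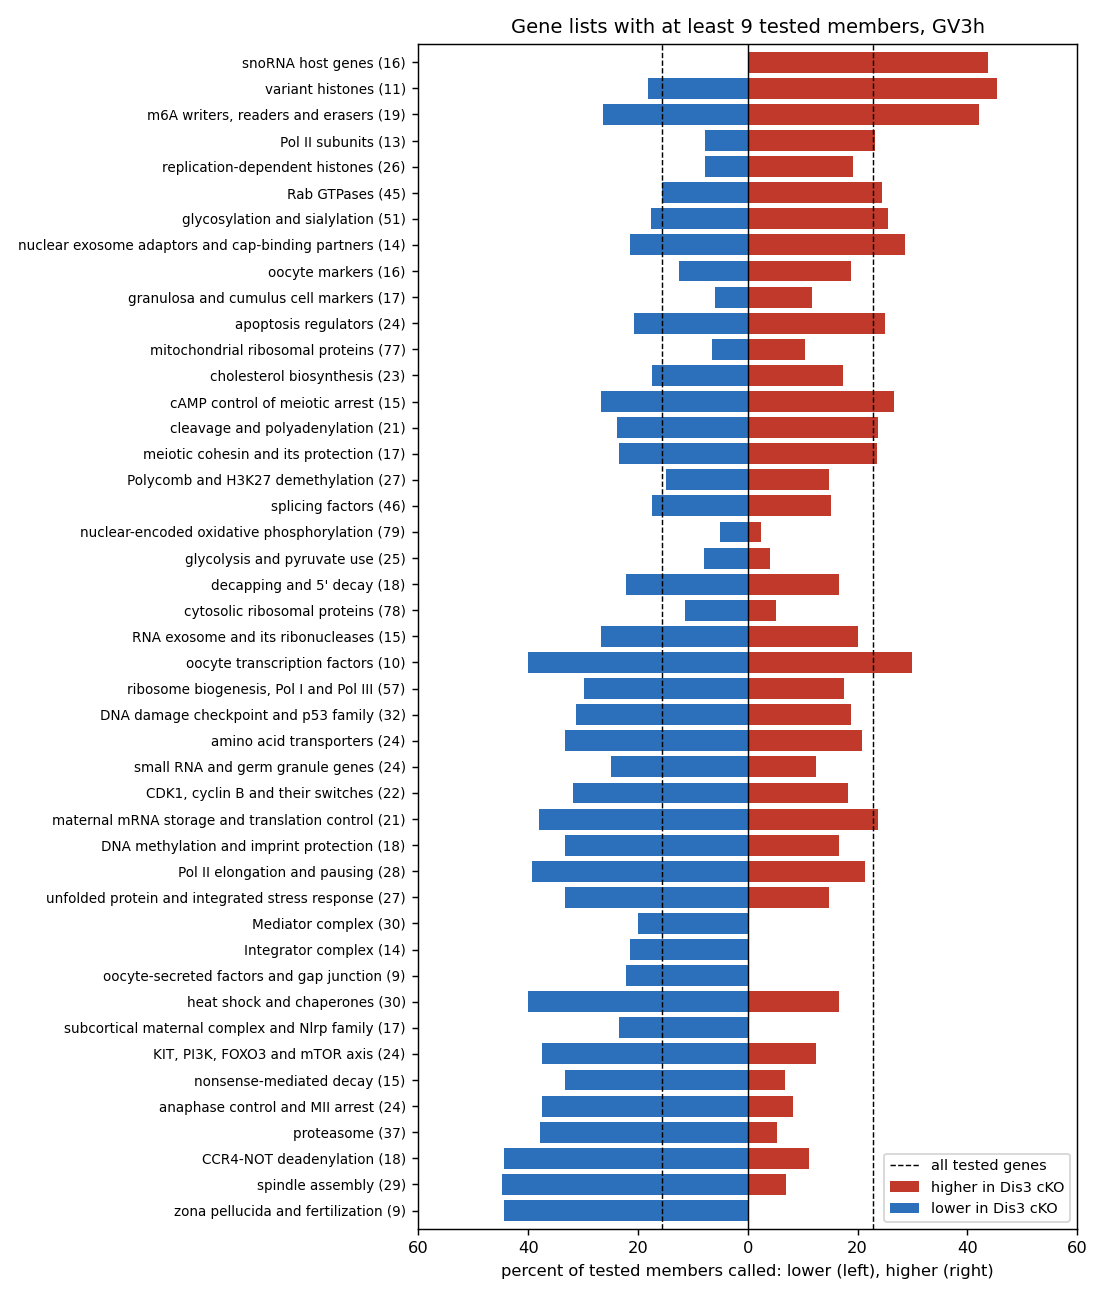
Bars give the percent of tested members of each gene list that were lower (left) or higher (right) in Dis3 cKO oocytes, for lists with at least 9 tested members, whose number is in brackets. Lists are ordered by the difference of both shares, from the snoRNA host genes (43.8% higher, none lower) to the zona pellucida and fertilisation genes (44.4% lower, none higher), and dashed lines mark all tested genes (15.7% lower, 22.9% higher).

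The direction of change went with the level of a gene and with its length on the chromosome. Above a mean of 100 CPM 7.6% of 2251 genes rose and 37.4% fell, and between 3 and 10 CPM 31.4% of 3201 genes rose and 9.7% fell. Coding genes were split into 5 equal groups by genomic span, with medians from 4.56 kb to 141 kb. From the shortest to the longest group the share that rose went 24.4%, 19.9%, 19.1%, 16.3% and 14.8%. The share that fell went 9.2%, 11.6%, 16.9%, 22.5% and 28% over the same groups. Restricted to coding genes with a mean of at least 10 CPM, the shortest group had 20.5% higher and 11.4% lower and the longest group 14.8% higher and 33.5% lower. Without libraries 15 and 16, 5.6% rose and 45.5% fell above 100 CPM, and 32.2% fell in the longest group against 11.4% in the shortest. The part of level and span in the counts of the gene lists was not tested.

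**Figure D5:**
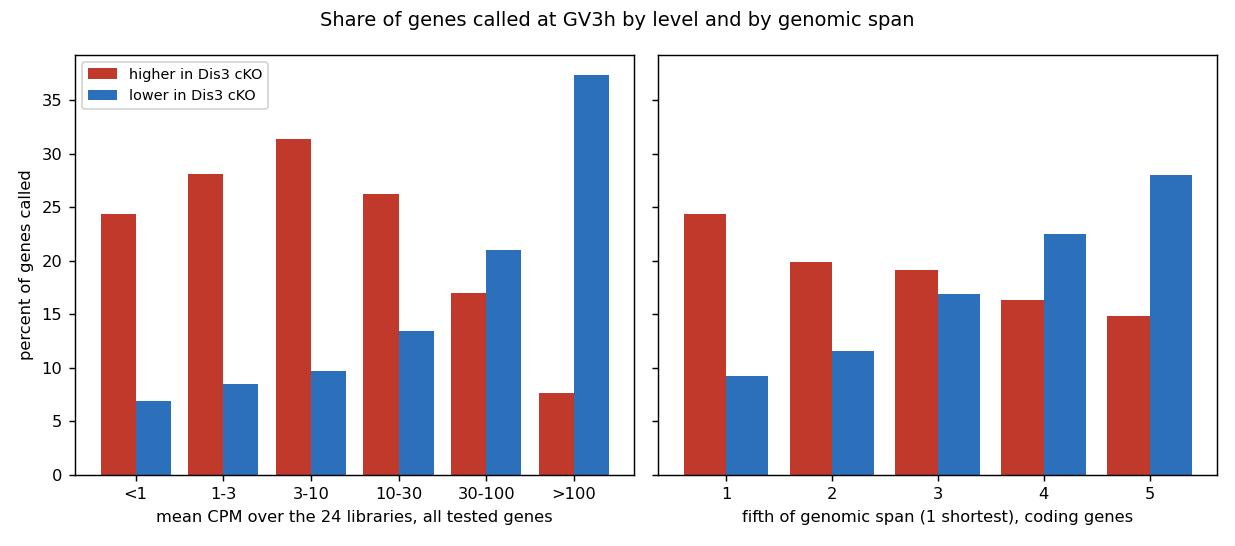
Bars give the percent of genes called higher or lower in Dis3 cKO oocytes by mean CPM over the 24 libraries (left, all tested genes) and by 5 equal groups of genomic span (right, coding genes, shortest first). The share lowered reaches 37.4% above 100 CPM and 28% in the group of longest span.

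The signs of the called genes were then read in the same genotypes before culture, in eggs and in total RNA. Of the 3989 genes that rose at GV3h, 90.0% had the same sign at GV, 89.6% in MII eggs and, among 3053 measured, 89.3% in adult RiboMinus libraries. Of the 2729 that fell, the shares were 89.6%, 79.7% and, among 2564 measured, 85.4%. The GV comparison called 21.9% of genes, the MII comparison 42.1% and the RiboMinus comparison 28.1%. Of the raised genes 1866 were also called at GV, 99.2% of them with the same sign, 2421 in MII eggs, 98.0% with the same sign, and 1420 in RiboMinus libraries, again 99.2% with the same sign. Of the lowered genes 1032 were also called at GV, 98.5% with the same sign, 1456 in MII eggs, 89.5% with the same sign, and 1023 in RiboMinus libraries, 96.4% with the same sign.

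The effect of Dis3 loss differed between GV3h and GV for 355 genes (2.04%) by the interaction term, a count that fell to 1 with counts summed over 4 consecutive title numbers, 42 with controls 1 to 4 and 82 with controls 5 to 8. The 355 comprised 239 with a more positive and 116 with a more negative effect at GV3h. The count and the split changed with the setting: 103 and 84 were called without libraries 15 and 16, 90 and 147 with the title number as a replicate block, and 197 and 266 with Dis3 cKO libraries 1 to 8 alone. Scaled to ERCC RNAs the split was 216 and 24, and the median over all genes moved from 0.02 to 0.27. Relative to MII eggs 2468 genes (14.2%) differed, 848 more positive and 1620 more negative at GV3h, and with ERCC scaling 258 and 2680 with the median moving from -0.05 to -0.42. Mgat2, an N-glycan branching enzyme of the Golgi, showed the largest positive difference from GV of the named genes. At GV3h it went from 0.342, 0.998 and 2.88 CPM to 6.66, 12.2 and 30.1 CPM, while at GV the medians were 3.79 CPM in controls and 6.46 CPM in Dis3 cKO oocytes with overlap. The difference of effects was 2.90 (SE 0.59, edgeR adjusted p 0.0032). Mcl1, an anti-apoptotic gene, had effects of 1.34 at GV3h and -0.62 at GV, a difference of 1.96 (edgeR adjusted p 0.034), or 1.73 without libraries 15 and 16 (edgeR adjusted p 0.09). Sox6, a transcription factor gene, had effects of -1.68 at GV3h and 0.21 at GV, a difference of -1.89 (edgeR adjusted p 0.010), and its GV3h levels fell from a median of 15.6 CPM to 4.99 CPM. Cd5, a lymphocyte receptor gene, was lower at GV3h, by 1.96, but not at GV (-0.23) and was higher in MII eggs (1.34).

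Grb14 had the largest interactions among the genes named for their decrease, -6.29 against GV (SE 1.11, edgeR adjusted p 9.8e-04) and -9.87 against MII (SE 1.30, edgeR adjusted p 4.9e-08). Its wide spread at GV and MII kept it out of the rule for interactions. With counts summed over 4 consecutive title numbers no gene, Grb14 included, was called with a more negative effect at GV3h than at GV. Relative to MII eggs, Mrm1 differed by 4.47 and Gm12678 by 3.49, in favour of GV3h. Gp5, a platelet glycoprotein gene, went from a median of 0.635 CPM to 26.9 CPM at GV3h and from 1.68 CPM to 3.87 CPM in MII eggs, a difference of effects of 3.38 (edgeR adjusted p 4.6e-05). Defb50, a defensin gene, went the other way, with effects of 0.90 at GV3h and 4.62 in MII eggs. Gpat2, an acyltransferase gene of the germline, had effects of 1.26 and 4.96, at levels in MII controls of 0 to 0.107 CPM.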

How the data were processed

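The authors deposited raw gene counts and ERCC counts of each library, as whole numbers without normalization. Per the submitters' processing notes, reads were trimmed with cutadapt 2.5, aligned with STAR 2.7.2a to mm10 and counted with HTSeq 0.9.1; the annotation release and the strand setting are not given in the sources used here. Of 55573 gene IDs, 99.7% had a symbol and 69.5%, with 96.3% of counts, matched RefSeq. The 6 poly(A) groups (71 libraries) were fitted together with edgeR 4.0.16 (R 4.3.3): TMM scaling, filterByExpr, quasi-likelihood F test, Benjamini-Hochberg over 17389 genes, threshold 0.05. RiboMinus libraries were fitted apart. Library measures were compared by 2-sided exact permutation tests. Named genes were those called, without overlap and with a mean of at least 10 CPM in the higher group, the 14 largest changes each way (6 and 4 for lncRNAs), up to 4 list members with the smallest p, and 6 interactions each way and stage. A gene that the rule named is not reported here. The members and lists were chosen with earlier results of these data known. Alternatives were DESeq2 1.42.0, ERCC scaling, no low-count filter, a replicate block, subsets and single libraries left out. The tests were checked on simulated data. Intervals and floors cover counting error only, since reads carry no molecular identifiers.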

Additional observations from a re-analysis of the deposited data

Results flagged for a closer look

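Single control libraries stood apart for 3 of 39 sets of 8 values by Dixon's limit for 8 samples (0.526), and chance gives about 1 in 20. The limit was applied on a log scale, and the values below are printed without the log. The pseudogene share was 0.9996% in control 1, against 1.125% in the nearest library. Gm42668 stood at 1.44 CPM in control 4, against 0.185 CPM in the nearest, and Adtrp at 13.2 CPM in control 3, against 22.8 CPM.

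By the interaction test in edgeR, the effect of Dis3 loss differed between GV3h and GV for the 12 genes named by rule. It was more positive at GV3h for Mgat2 (2.90), AC134458.2 (2.89), Gm49767 (2.30), Ammecr1 (2.21), Akirin1 (2.06) and Mcl1 (1.96). It was more negative for Gm10466 (-2.16), Rasl11b (-1.95), Schip1 (-1.92), Sox6 (-1.89), Frk (-1.80) and Cd5 (-1.73), all on the log2 scale. Without libraries 15 and 16 edgeR adjusted p values rose above 0.05 for Gm10466 (0.0623), Rasl11b (0.0733), Schip1 (0.0735) and Mcl1 (0.0897), with values of -2.10, -1.92, -1.89 and 1.73. With counts summed over 4 consecutive title numbers none of the 12 was called.

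Between GV3h and MII eggs the effect was more positive at GV3h for Mrm1 (4.47), Rusc2 (3.61), Gm12678 (3.49), Gp5 (3.38), 1700055D18Rik (3.25) and Gm9903 (3.21). The difference of 1700055D18Rik turned to -0.2243 with controls 5 to 8 alone. It was more negative for Gm30198 (-7.16), Gm47448 (-3.99), Defb50 (-3.72), Gpat2 (-3.71), Hint3 (-3.44) and Cd5 (-3.29). Gm30198 was at 0 in all MII controls, so its value depends on the prior count.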

How the results depend on the processing

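The count of 6718 called genes was 4307 to 8513 over the alternatives run, and moved by over 1.5 times only with controls 1 to 4 alone (4307, of which 4149 are shared with the reported calls, all with the same sign). The title numbers do not pair the samples: over 8 pairs the deviations of same-numbered libraries correlated at -0.116 to 0.140, and 0 libraries matched best with their own number. With the number as a replicate block 6403 genes were called, and 8251 in a fit of the 2 GV3h groups with the block. The GV3h against GV difference (355 genes) was called for 545 with DESeq2, 841 with only the 4 groups of those stages, 187 without libraries 15 and 16, 42 with controls 1 to 4, 82 with controls 5 to 8 and 1 with counts summed over 4 consecutive title numbers, where 1638 genes had an unadjusted p under 0.05. The GV3h against MII difference (2468 genes) was called for 578 with summed counts, 1197 with controls 1 to 4 and 1364 with controls 5 to 8. The settings with summed counts or subsets hold fewer samples. Scaled to ERCC RNAs, the exosome list had 3 genes higher and 2 lower, cAMP control 2 and 3, and cohesin 3 and 2. In the same setting Rab GTPases had 9 higher and 4 lower, cytosolic ribosomal proteins 2 and 5, and nuclear-encoded oxidative phosphorylation 1 and 2. Among the library measures, gene counts per ERCC count differed by -0.2641 (exact permutation p 0.0182) with ERCC counts scaled by TMM, the lncRNA share by 0.1046 (p 0.0524) with Dis3 cKO libraries 9 to 16 alone, and the histone share by -0.3524 (p 0.039) with the same libraries. Leaving out 1 library at a time put the histone share at -0.2758 to -0.1626, past the threshold without control 8, Dis3 cKO 1 or Dis3 cKO 12. For single genes, 243 results gave 3127 values over their alternatives, of which 2895 kept direction and call, 229 kept only the direction and 3 changed sign. Ergic2, not called, stood at -0.001047 with summed counts and -0.01046 in the 2-group fit with the block, and the GV3h against MII difference of 1700055D18Rik was -0.2243 with controls 5 to 8 alone. The cause was not tested. The depth of each library limits the lowest genes, whose control counts are near 0.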
